A study of Mus musculus with 11 samples.

Results

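Fatty acid handling and its regulation by the peroxisome proliferator-activated receptors (PPARs) were followed through 38 genes of the mouse airway transcriptome, out of 21899 genes in the expression table. The genes were chosen by symbol for their known role: nuclear receptors with a partner and a coactivator, fatty acid uptake and binding, acyl-CoA synthesis, the carnitine shuttle, beta-oxidation, fatty acid synthesis and desaturation, glycerol and triglyceride metabolism, and classical PPAR targets. Earlier results of these data were known when the 38 genes were chosen. All 38 were found in the table, and 37 of them were among the 14004 genes that passed the filter on low values and were tested. The exception was Cpt1b.

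PPARs are nuclear receptors that bind fatty acids and their derivatives, pair with a retinoid X receptor, and switch on genes for taking up, burning or storing fat. PPARα drives fatty acid oxidation, PPARγ is the regulator of fat cell formation and is also needed by alveolar macrophages, and PPARδ is expressed in many tissues. Heart muscle and brown fat burn fatty acids heavily, and the lung uses them to make surfactant.

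The libraries were made from male BALB/c wild-type young adult mice. PBS mice (3 libraries) were not sensitised and received PBS alone. OVA/LPS/Vehicle mice (4 libraries) were sensitised with ovalbumin (OVA) in alum by the intraperitoneal route, challenged with OVA through the nose and then given intranasal lipopolysaccharide (LPS), a bacterial endotoxin, with vehicle instilled into the trachea. OVA/LPS/GGsTop mice (4 libraries) had the same OVA and LPS and were given intratracheal GGsTop, an inhibitor of γ-glutamyl transferase, in place of vehicle. The OVA/LPS/Vehicle libraries carry the labels 12, 34, 56 and 78. No source used here says whether such a label means pooled mice, or that each library of any group is a separate animal. The p-values therefore measure the spread between these libraries.

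GEO labels the tissue as trachea, whereas the methods describe bluntly dissected airway without trachea. Airway epithelial markers were abundant in every library, with a sum over 7 genes of 32993 to 57567 FPKM (fragments per kilobase of exon, scaled to library size), led by the club cell gene Scgb1a1. The cartilage markers were at or near 0 in 3 libraries (PBS 3, OVA/LPS/GGsTop 1 and OVA/LPS/GGsTop 3, sums of 0.256 to 0.470 FPKM). Depth was even, at 14513136 to 18632382 fragments per library. The share of FPKM in mitochondrially encoded genes was 14.5% to 19.5% in OVA/LPS/Vehicle, 2.08% to 10.1% in PBS and 7.40% to 11.1% in OVA/LPS/GGsTop.

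White and brown adipocyte markers and cardiac muscle markers varied widely between libraries of the same group. The summed brown adipocyte level (6 of 6 markers detected, none at 0 in all libraries) was 10.7 to 186 FPKM in PBS, 196 to 715 FPKM in OVA/LPS/Vehicle and 24.6 to 217 FPKM in OVA/LPS/GGsTop. For 9 white adipocyte markers the sums were 66.5 to 421, 276 to 663 and 46.0 to 495 FPKM in the same order, and for 9 cardiac markers 96.4 to 1984, 978 to 1598 and 621 to 2685 FPKM. Against PBS, 2 brown adipocyte markers, 3 cardiac markers and no white adipocyte marker passed the test in OVA/LPS/Vehicle, all of them higher, and no marker of these lists passed it in the other comparisons. Of the other marker lists, 4 airway epithelial, 2 alveolar macrophage and 1 skeletal muscle gene were higher and 4 alveolar type 2, 3 capillary endothelial and 1 skeletal muscle gene lower in OVA/LPS/Vehicle than in PBS. In OVA/LPS/GGsTop 1 skeletal muscle and 1 alveolar type 2 gene were higher than in vehicle, and 1 airway epithelial and 1 alveolar macrophage gene were higher than in PBS. No cartilage, smooth muscle or T cell and thymus gene passed the test. The airway epithelial, alveolar macrophage, skeletal muscle, alveolar type 2 and capillary endothelial lists had 7 genes tested each. For OVA/LPS/Vehicle against PBS, 38% of all genes tested passed (15.9% higher and 22.1% lower). The share was 8.71% for GGsTop against vehicle and 2.88% for GGsTop against PBS.

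Compared with PBS, the OVA/LPS/Vehicle airway differed in 19 of the 37 genes tested. Acyl-CoA synthetases (Acsl1, Acsl3, Acsl4), mitochondrial beta-oxidation enzymes (Acadm, Acadl, Hadhb), transport and binding proteins (Cd36, Fabp3, Slc27a2), Pparg, its coactivator Ppargc1a and the glycerol kinase gene Gk were higher. The desaturase genes Fads1 and Fads2, Ppard, Rxra, Slc27a4, Cpt1a and Angptl4 were lower. The test was limma on log2(FPKM + 1) with Benjamini-Hochberg adjustment over all genes tested, and genes with an adjusted p under 0.05 were taken as called. Of all genes tested, 38% were called in this comparison (15.9% higher and 22.1% lower), against 19 of 37 here (12 higher and 7 lower, 51.4%). The median log2 fold change (log2 change from here on) of the 37 genes was 0.49, beside −0.01 over all genes, and the groups did not overlap for 15 of the 37, beside 44.1% of all genes.

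Between OVA/LPS/GGsTop and OVA/LPS/Vehicle, 4 of these genes differed past the threshold. Gk and Cd36 were lower and Fads1 and Fads2 were higher in OVA/LPS/GGsTop. The comparison shares its vehicle libraries with the previous one, so that the fold changes of both are set side by side for each gene and no agreement between them is counted. The 4 of 37 called (10.8%) stand beside 8.71% of all genes tested (6.90% higher and 1.81% lower). In all, 28 of the 37 genes had a negative fold change, and the median log2 change was −0.47, beside 0.03 over all genes. The groups did not overlap for 14 genes, beside 29.7% of all genes. After correction for GC content none of the 4 kept its call, with adjusted p between 0.0535 for Gk and 0.200 for Fads1, and with single libraries left out between 0 and 3 genes were called. Over all genes tested GC correction left 0.400% called. None of the 4 was called without OVA/LPS/Vehicle 34 or 56 or without OVA/LPS/GGsTop 1 or 3, 1 (Gk) without OVA/LPS/Vehicle 78 or OVA/LPS/GGsTop 2, 2 (Gk and Fads2) without OVA/LPS/Vehicle 12 and 3 (Gk, Cd36 and Fads1) without OVA/LPS/GGsTop 4. Over all genes, 0.171% to 0.736% were called in the 4 fits with none of these genes and 1.68% to 7.51% in the other 4.

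OVA/LPS/GGsTop and PBS did not differ past the threshold for any of the 37 genes in the limma test. The same held with limma voom on the fragments recovered from the FPKM, which covered 36 of them and left out Rxra. Of all genes tested, 2.88% were called in this comparison (2.06% higher and 0.821% lower), and 0.678% with the replicate number as a block. Among the 37 genes the smallest unadjusted p-values belonged to Fads1, Fads2, Angptl4 and Cpt1a, with negative fold changes, and to Acsl3, with a positive one. The median log2 change was −0.02, and the groups did not overlap for 3 genes (Fads1, Fads2 and Acsl3), beside 14.8% of all genes. Without PBS 2 there were 5 genes called (Acsl1, Acsl3 and Fabp3 higher, Fads1 and Fads2 lower), and without OVA/LPS/GGsTop 3 only Fads1.

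**Figure D1:**
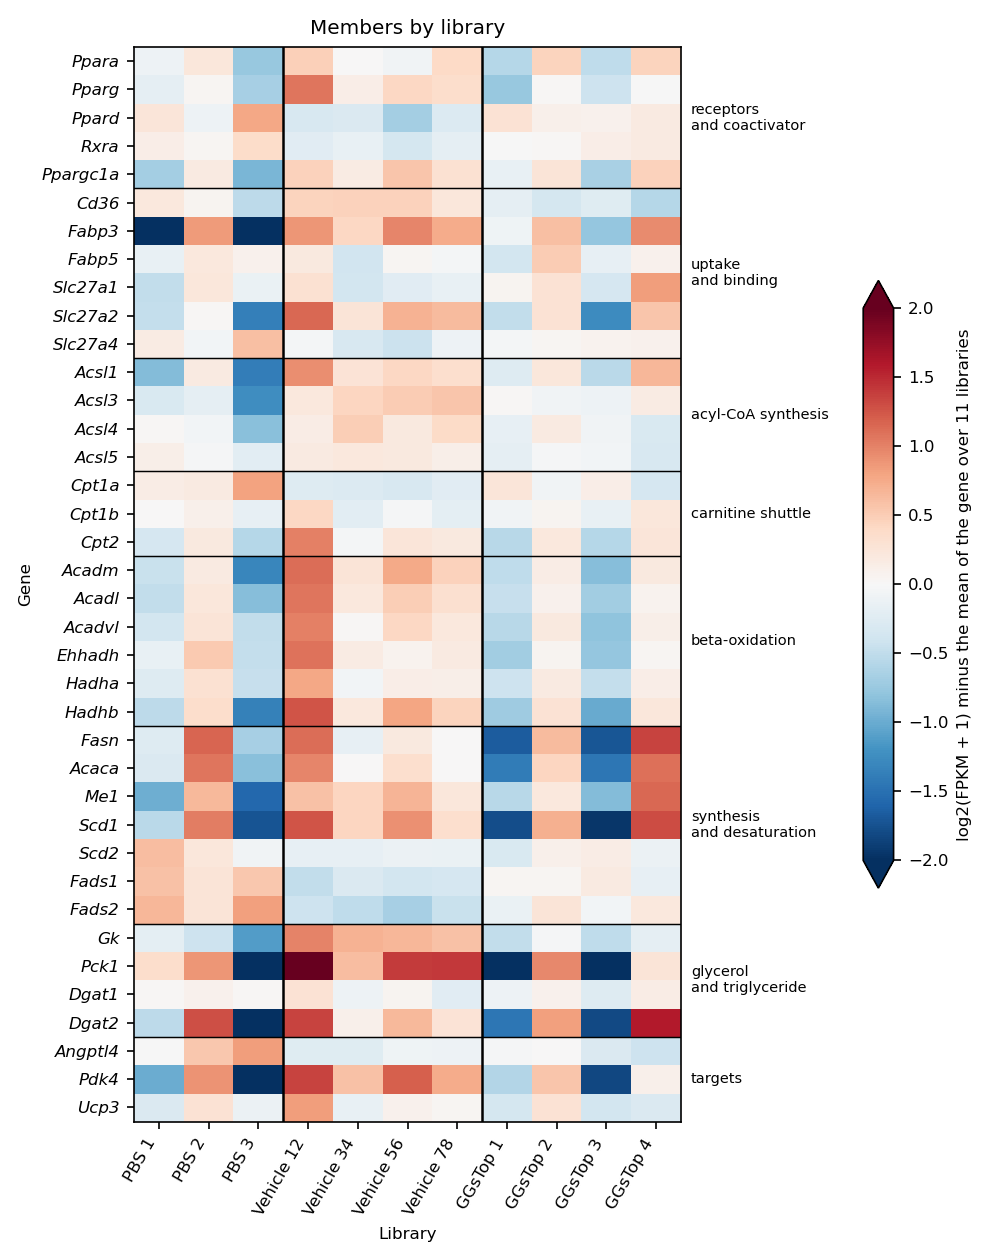
Heat map of log2(FPKM + 1) minus the mean of the gene over the 11 libraries, with the 38 genes in rows grouped by role and the libraries in columns (colours end at ±2, Vehicle and GGsTop stand for OVA/LPS/Vehicle and OVA/LPS/GGsTop, red is above and blue below the gene's mean). The beta-oxidation rows were reddest in Vehicle 12 and bluest in PBS 3 or GGsTop 3, whereas Fads1 and Fads2 were blue in all 4 Vehicle libraries.

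In what follows, FPKM are listed in the order PBS 1 to 3, OVA/LPS/Vehicle 12, 34, 56 and 78, and OVA/LPS/GGsTop 1 to 4. Positions are those of GENCODE M21 on GRCm38. FPKM are divided by exon length, so that levels can be set side by side between genes. These are bulk libraries, in which fewer cells of a type and less RNA per cell cannot be told apart.

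The receptors were expressed at low levels. Pparg (chr6:115360951-115490399, + strand) encodes PPARγ. Pparg measured 5.17, 6.16 and 3.44 FPKM in PBS, 13.7, 6.68, 8.37 and 7.96 FPKM in OVA/LPS/Vehicle and 3.13, 6.09, 4.23 and 5.95 FPKM in OVA/LPS/GGsTop. All 4 vehicle libraries were above all PBS and all GGsTop libraries, and library 12 was the highest. The fitted log2 change was 0.76 (SE 0.25, adjusted p = 0.0352) for OVA/LPS/Vehicle against PBS and −0.79 (SE 0.23, adjusted p = 0.0567) for GGsTop against vehicle. The markers of alveolar macrophages (7 of 7 detected, none at 0) summed to 175 to 248 FPKM in PBS, 219 to 959 FPKM in vehicle and 478 to 884 FPKM in GGsTop libraries, and their part in the Pparg level was not tested. Ppard (chr17:28232700-28301474, + strand), which encodes PPARδ, went the other way. In PBS Ppard stood at 4.89, 3.66 and 7.52 FPKM, in OVA/LPS/Vehicle at 3, 3.09, 2.11 and 3.14 FPKM and in OVA/LPS/GGsTop at 5.08, 4.36, 4.29 and 4.68 FPKM. The vehicle libraries were the lowest of the 11, with no overlap with either group. Ppard fell by 0.69 on the log2 scale against PBS (SE 0.18, adjusted p = 0.0144), and its log2 change under GGsTop was 0.55 (SE 0.17, adjusted p = 0.0590). Ppara, for the receptor PPARα (chr15:85734983-85802819, + strand), was the lowest of the receptor genes and passed the test in no comparison. The Ppara level was 1.82, 2.52 and 0.784 FPKM in PBS, 3.2, 2.03, 1.88 and 2.95 FPKM in OVA/LPS/Vehicle and 1.02, 3.09, 1.12 and 3.08 FPKM in OVA/LPS/GGsTop. Its groups overlapped in every comparison, with a log2 change of 0.41 (SE 0.30, adjusted p = 0.296) against PBS.

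Rxra (chr2:27676440-27762957, + strand) encodes the retinoid X receptor α, the partner that PPARs need to bind DNA. For Rxra the FPKM were 20.9, 19.5 and 24.7 in PBS, 16, 17.1, 14.7 and 16.5 in OVA/LPS/Vehicle and 18.9, 19.2, 20.9 and 21.7 in OVA/LPS/GGsTop. The vehicle libraries lay below all others. Its log2 change was −0.41 (SE 0.10, adjusted p = 0.0127) against PBS and 0.31 (SE 0.10, adjusted p = 0.0609) for GGsTop against vehicle. After GC correction these were −0.08 (adjusted p = 0.494) and 0.05 (adjusted p = 0.753). Ppargc1a (chr5:51454250-51567726, − strand) encodes the coactivator PGC-1α, known for driving mitochondrial biogenesis in brown fat and muscle. Ppargc1a measured 0.937, 2.51 and 0.643 FPKM in PBS, 3.26, 2.47, 3.55 and 2.8 FPKM in OVA/LPS/Vehicle and 1.78, 2.69, 0.971 and 3.23 FPKM in OVA/LPS/GGsTop. PBS 2 lay inside the vehicle range, while PBS 1 and PBS 3 were the lowest of the 11 libraries. Its log2 change against PBS was 0.84 (SE 0.29, adjusted p = 0.0388), and 0.40 after GC correction (adjusted p = 0.261).

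Among the 6 uptake and binding genes, 3 were higher and 1 was lower in OVA/LPS/Vehicle than in PBS, and Cd36 alone passed the test under GGsTop. Cd36 (chr5:17781690-17888801, − strand) encodes a fatty acid and scavenger receptor of endothelium, macrophages and adipocytes, and had the highest mean level of the 6. In PBS Cd36 stood at 330.3, 297 and 197 FPKM, in OVA/LPS/Vehicle at 389.7, 394, 392 and 335 FPKM and in OVA/LPS/GGsTop at 252, 223, 241 and 191 FPKM. The 4 vehicle libraries were above the other 7, library 78 only narrowly. Cd36 differed by a log2 change of 0.49 (SE 0.18, adjusted p = 0.0491) against PBS and −0.74 (SE 0.16, adjusted p = 0.0283) for GGsTop against vehicle. With GC correction the first of these turned to −0.09 (adjusted p = 0.598) and the second was −0.37 (adjusted p = 0.108). Capillary endothelial markers (7 of 7 detected, none at 0) summed to 954 to 1743 FPKM in PBS, 711 to 902 FPKM in vehicle and 503 to 1174 FPKM in GGsTop libraries. Against PBS, 3 of these endothelial markers were lower in OVA/LPS/Vehicle and none passed the test under GGsTop. Alveolar macrophage markers summed to 175 to 248, 219 to 959 and 478 to 884 FPKM in the same order of groups. The sums were 66.5 to 421, 276 to 663 and 46.0 to 495 FPKM for white adipocyte markers. For brown adipocyte markers they were 10.7 to 186, 196 to 715 and 24.6 to 217 FPKM. The part of these cell types in the Cd36 level was not tested.

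Fabp3 (chr4:130308595-130315463, + strand) encodes the fatty acid-binding protein of heart muscle. The Fabp3 level was 15.2, 158 and 19.3 FPKM in PBS, 161, 115, 171 and 145 FPKM in OVA/LPS/Vehicle and 81.7, 132, 50.6 and 167 FPKM in OVA/LPS/GGsTop. PBS 2 lay within the vehicle range, at about the level of OVA/LPS/Vehicle 12, while PBS 1 and PBS 3 were the lowest of the 11 libraries. Fabp3 had a log2 change against PBS of 1.98 (SE 0.67, adjusted p = 0.0365). The cardiac marker sums of PBS 1, 2 and 3 were 96.4, 1984 and 144 FPKM, which ranks the 3 libraries as Fabp3 does. Slc27a2 (chr2:126552407-126588243, + strand) encodes a fatty acid transport protein with very long-chain acyl-CoA synthetase activity. For Slc27a2 the FPKM were 1.5, 2.53 and 0.357 in PBS, 6.75, 3.15, 4.65 and 4.4 in OVA/LPS/Vehicle and 1.47, 3.25, 0.456 and 4.12 in OVA/LPS/GGsTop. All vehicle libraries were above all PBS libraries, whereas GGsTop 2 and 4 overlapped with vehicle and GGsTop 3 was close to PBS 3. Its log2 change against PBS was 1.29 (SE 0.43, adjusted p = 0.0341).

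Slc27a4 (chr2:29802634-29817522, + strand), another member of the fatty acid transport family, was lower in OVA/LPS/Vehicle. Slc27a4 measured 10.0, 8.52 and 14 FPKM in PBS, 8.6, 6.88, 6.28 and 8.21 FPKM in OVA/LPS/Vehicle and 8.62, 9.17, 9.34 and 9.5 FPKM in OVA/LPS/GGsTop. Only vehicle library 12 reached the lowest PBS library. Against PBS the log2 change was −0.46 (SE 0.15, adjusted p = 0.0327), and −0.14 after GC correction (adjusted p = 0.356). The other uptake genes, Fabp5 and Slc27a1, passed the test in no comparison. Fabp5, an epidermal-type fatty acid-binding protein gene, ranged from 7.64 to 15.0 FPKM over the 11 libraries, and Slc27a1 from 7.96 to 21.3 FPKM.

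Of the acyl-CoA synthetase genes, whose products activate free fatty acids for all later steps, 3 of 4 were higher in OVA/LPS/Vehicle than in PBS. Acsl3 (chr1:78657825-78707743, + strand) encodes a synthetase linked to lipid droplet formation. In PBS Acsl3 stood at 8.72, 9.53 and 4.03 FPKM, in OVA/LPS/Vehicle at 12.9, 15.1, 16 and 16.5 FPKM and in OVA/LPS/GGsTop at 11.2, 10.4, 10.1 and 12.3 FPKM. The 3 groups were separate, with PBS lowest, vehicle highest and GGsTop between. Acsl3 had a log2 change of 1.0 (SE 0.21, adjusted p = 0.00703) for vehicle against PBS, −0.42 (SE 0.20, adjusted p = 0.173) for GGsTop against vehicle and 0.58 (SE 0.21, adjusted p = 0.160) for GGsTop against PBS. In the annotation 244 exon bases of Acsl3 are shared with Utp14b on the same strand. Acsl1 (chr8:46471037-46536051, + strand) is the main synthetase gene of fat and heart. The Acsl1 level was 9.9, 21.5 and 6.62 FPKM in PBS, 36.7, 22.8, 25.4 and 24 FPKM in OVA/LPS/Vehicle and 15.6, 22.2, 12.6 and 30.2 FPKM in OVA/LPS/GGsTop. Vehicle and PBS did not overlap, although PBS 2 came close to vehicle library 34, and GGsTop 4 was above 3 of the vehicle libraries. Its log2 change against PBS was 1.17 (SE 0.36, adjusted p = 0.0254).

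Acsl4 (chrX:142317993-142390535, − strand) prefers arachidonic acid, the precursor of the eicosanoids. For Acsl4 the FPKM were 19.3, 18.4 and 10.2 in PBS, 21.3, 27.3, 22 and 25.2 in OVA/LPS/Vehicle and 17, 21.8, 18.1 and 15.2 in OVA/LPS/GGsTop. Vehicle did not overlap with PBS, of which PBS 3 was the lowest of the 11 libraries, and GGsTop 2 lay within the vehicle range. Against PBS its log2 change was 0.60 (SE 0.20, adjusted p = 0.0352), and 0.04 after GC correction (adjusted p = 0.829). Acsl5 was tighter, at 20.2 to 29.8 FPKM in the 11 libraries, with vehicle above GGsTop without overlap and a log2 change of −0.32 (SE 0.10, adjusted p = 0.0597).

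The carnitine shuttle carries long-chain fatty acids into the mitochondrion, and its liver-type entry enzyme is encoded by Cpt1a (chr19:3322334-3385733, + strand). Cpt1a measured 23.2, 23.6 and 36.9 FPKM in PBS, 17.3, 17.1, 16.4 and 17.6 FPKM in OVA/LPS/Vehicle and 24.7, 19.8, 22.8 and 16.2 FPKM in OVA/LPS/GGsTop. The vehicle libraries lay close together and below all PBS libraries, of which PBS 3 was the highest, and GGsTop 4 lay below all of them. Cpt1a fell by 0.64 on the log2 scale against PBS (SE 0.17, adjusted p = 0.0151), and its log2 change under GGsTop was 0.26 (SE 0.16, adjusted p = 0.283). Cpt2, the inner-membrane enzyme gene, ranged from 11.1 to 35.4 FPKM and passed the test in no comparison. Cpt1b, the muscle form, lay under the filter, with 0.113 to 0.708 FPKM or 6 to 37 fragments per library. Exact two-sided permutation tests gave p = 0.971 for OVA/LPS/Vehicle (n = 4) against PBS (n = 3), 0.943 for GGsTop (n = 4) against vehicle and 0.800 for GGsTop against PBS. The smallest p possible is 0.0286 with 4 against 4. With 4 against 3 the doubled tail cannot fall under 0.05, so that the tests against PBS could not have passed that level. Of its 3372 exon bases, 2744 are shared with a readthrough transcript, Gm44502, which is listed at 0 throughout, so that the level of Cpt1b is uncertain.

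The beta-oxidation enzymes shorten fatty acids inside mitochondria and peroxisomes. Acadm, Acadl and Hadhb were higher in OVA/LPS/Vehicle than in PBS. Acadvl, Ehhadh and Hadha had positive log2 changes of 0.38 to 0.62 that did not pass the test. Acadm (chr3:153922357-153944632, − strand) encodes the medium-chain acyl-CoA dehydrogenase. In PBS Acadm stood at 36.8, 56.9 and 19.8 FPKM, in OVA/LPS/Vehicle at 110.0, 60.7, 85.7 and 70.0 FPKM and in OVA/LPS/GGsTop at 35, 56, 27.4 and 57.7 FPKM. All vehicle libraries exceeded all others, with a log2 change of 1.17 (SE 0.35, adjusted p = 0.0238) against PBS and −0.91 (SE 0.33, adjusted p = 0.0936) for GGsTop against vehicle. Acadl (chr1:66830839-66863277, − strand) encodes the long-chain dehydrogenase. The Acadl level was 70.1, 116 and 54.1 FPKM in PBS, 208, 114, 139.7 and 124 FPKM in OVA/LPS/Vehicle and 71.3, 105, 60.7 and 104 FPKM in OVA/LPS/GGsTop. PBS 2 exceeded vehicle library 34, while the GGsTop libraries were all below vehicle. Its log2 change against PBS was 0.89 (SE 0.29, adjusted p = 0.0325). Hadhb (chr5:30155248-30184593, + strand) encodes the thiolase subunit of the trifunctional protein. For Hadhb the FPKM were 17.3, 32.7 and 9.35 in PBS, 61.7, 29.6, 44.2 and 34.7 in OVA/LPS/Vehicle and 15.1, 31.3, 12.1 and 29.8 in OVA/LPS/GGsTop. Both PBS and GGsTop overlapped with vehicle, through PBS 2, GGsTop 2 and GGsTop 4. Hadhb had a log2 change of 1.18 against PBS (SE 0.42, adjusted p = 0.0460).

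Under GGsTop all 6 beta-oxidation genes had negative log2 changes, from −0.97 for Hadhb to −0.39 for Hadha. None passed the test, with adjusted p between 0.0868 and 0.263. Against PBS the 6 log2 changes of OVA/LPS/GGsTop lay between −0.31 and 0.27. Ehhadh, the peroxisomal bifunctional enzyme gene, was the lowest of the 6 at 2.59 to 12.1 FPKM. Acadvl shares 1151 exon bases with Dvl2 on the opposite strand, and whether the counting used strand is not stated in the sources used here.

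**Figure D2:**
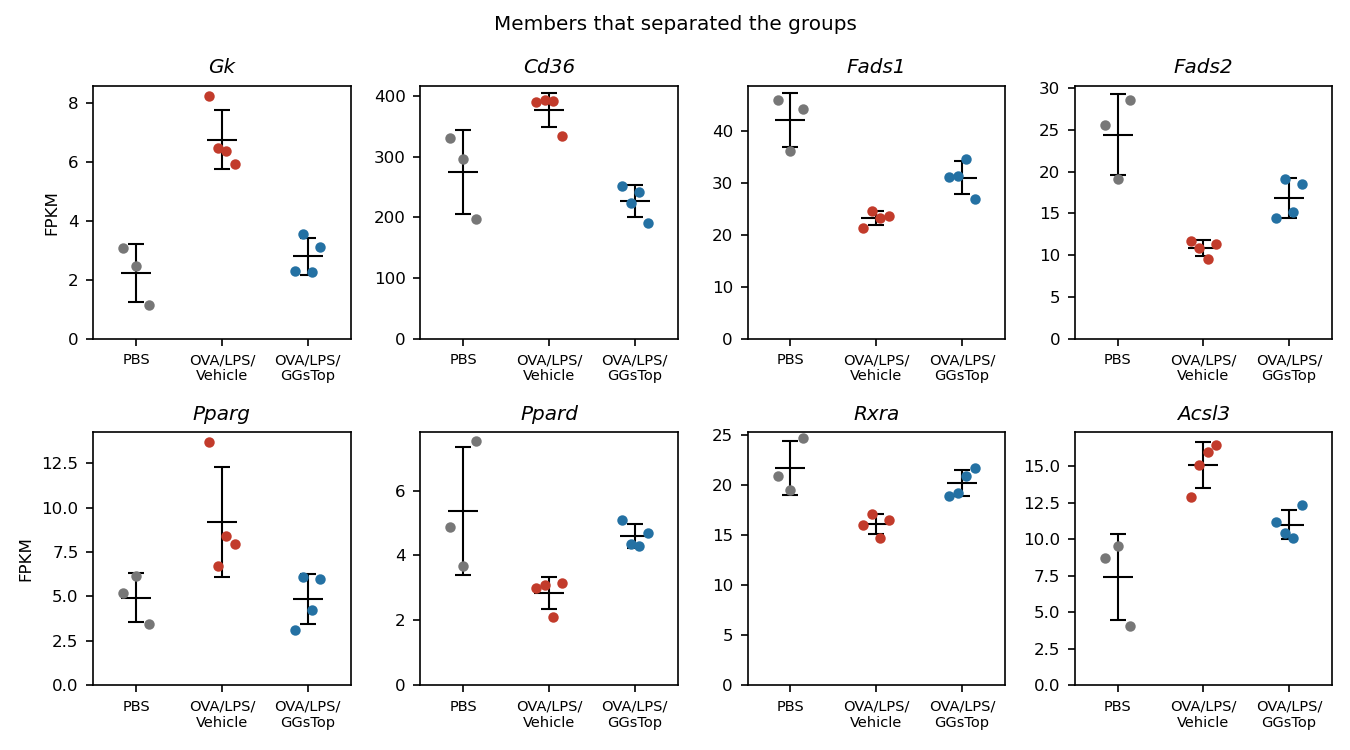
FPKM of 8 genes in each library (points), with the group mean (long bar) and SD (short bars, n = 3 PBS, n = 4 OVA/LPS/Vehicle, n = 4 OVA/LPS/GGsTop), on linear axes that start at 0. Gk, Cd36, Pparg and Acsl3 were highest and Fads1, Fads2, Ppard and Rxra lowest in OVA/LPS/Vehicle, with no overlap between the vehicle points and either other group.

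Among the genes of synthesis and desaturation, the desaturase genes Fads1 and Fads2 were called in both comparisons with the vehicle group and the other 5 genes in none. Fads2 (chr19:10062765-10101746, − strand) encodes the delta-6 desaturase, the first step in making long polyunsaturated fatty acids such as arachidonic acid, and Fads1 (chr19:10182888-10196877, + strand) the delta-5 desaturase that acts later in the same route. The genes lie 81141 bases apart. In PBS Fads2 stood at 25.6, 19.1 and 28.6 FPKM, in OVA/LPS/Vehicle at 11.6, 10.8, 9.58 and 11.4 FPKM and in OVA/LPS/GGsTop at 14.4, 19.1, 15.1 and 18.5 FPKM. The vehicle libraries were the lowest of the 11, PBS the highest, and GGsTop 2 lay just under PBS 2. The log2 change was −1.09 (SE 0.15, adjusted p = 0.00337) for vehicle against PBS, 0.58 (SE 0.14, adjusted p = 0.0305) for GGsTop against vehicle and −0.51 (SE 0.15, adjusted p = 0.0848) for GGsTop against PBS. The Fads1 level was 46, 36.2 and 44.2 FPKM in PBS, 21.3, 24.7, 23.3 and 23.7 FPKM in OVA/LPS/Vehicle and 31.1, 31.2, 34.6 and 26.9 FPKM in OVA/LPS/GGsTop. The 3 groups did not overlap, in the order PBS, GGsTop, vehicle. Fads1 fell by 0.83 on the log2 scale against PBS (SE 0.11, adjusted p = 0.00337), rose by 0.40 under GGsTop (SE 0.11, adjusted p = 0.0430) and differed by −0.43 between GGsTop and PBS (SE 0.11, adjusted p = 0.0663).

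For OVA/LPS/Vehicle against PBS, Fads1, Fads2 and Gk passed the test in all 19 alternative analyses, with adjusted p of at most 0.0377 and log2 changes of −0.72, −0.87 and 0.81 after GC correction. Alveolar type 2 cell markers, whose cells make surfactant lipid, summed to 9956 to 15926 FPKM in PBS, 5063 to 8468 FPKM in vehicle and 4563 to 11659 FPKM in GGsTop libraries. Of these 7 markers, all detected, 4 were lower in OVA/LPS/Vehicle than in PBS and 1 was higher under GGsTop. Their part in the Fads1 and Fads2 difference was not tested.

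Fasn, Acaca, Me1 and Scd1, which cover fatty acid synthesis, its NADPH supply and the delta-9 desaturation step, passed the test in no comparison. Fasn ranged from 42.0 to 151 FPKM in PBS, 59.2 to 145 FPKM in vehicle and 19.8 to 171 FPKM in GGsTop libraries. For Scd1, the most abundant of the 38 genes by mean FPKM, the ranges were 79.2 to 543, 336 to 639 and 67.9 to 656 FPKM. Within the GGsTop group the highest library exceeded the lowest 9.66 times for Scd1, 8.67 times for Fasn, 7.68 times for Acaca and 4.19 times for Me1, whereas for Fads1 it did so 1.28 times. Scd2, the desaturase form of brain and lung, was at 71.1 to 73.1 FPKM in vehicle and 76.0 to 122 FPKM in PBS libraries without overlap (log2 change −0.40, SE 0.16, adjusted p = 0.0648).

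Gk (chrX:85701937-85776819, − strand) encodes glycerol kinase, which makes glycerol 3-phosphate for triglyceride and phospholipid synthesis. For Gk the FPKM were 3.05, 2.46 and 1.14 in PBS, 8.21, 6.46, 6.35 and 5.93 in OVA/LPS/Vehicle and 2.28, 3.53, 2.24 and 3.09 in OVA/LPS/GGsTop. The vehicle libraries were above the other 7, and PBS and GGsTop overlapped. Gk had a log2 change of 1.31 (SE 0.21, adjusted p = 0.00365) for vehicle against PBS, −1.04 (SE 0.19, adjusted p = 0.0198) for GGsTop against vehicle and 0.27 (SE 0.21, adjusted p = 0.478) for GGsTop against PBS. After GC correction the second of these was −0.72 (adjusted p = 0.0535). Pck1 serves in making glycerol 3-phosphate from smaller precursors in fat. It spread over 0.388 to 69.1 FPKM, with 64.2 times between the highest and lowest GGsTop library. Its log2 change under GGsTop, −2.54 (SE 0.97, adjusted p = 0.108), had the largest size of the 37 and did not pass the test. Dgat2, an enzyme of the last triglyceride step, ranged from 2.68 to 52.7 FPKM and Dgat1, the other one, from 10.2 to 15.4 FPKM, with no call for either.

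Among the 3 classical PPAR targets only Angptl4 was called. Angptl4 (chr17:33773750-33781830, − strand) encodes a secreted inhibitor of lipoprotein lipase. Angptl4 measured 17.6, 26.4 and 32.6 FPKM in PBS, 15, 15, 16.7 and 16.5 FPKM in OVA/LPS/Vehicle and 17.6, 17.9, 14.4 and 13.1 FPKM in OVA/LPS/GGsTop. The vehicle libraries were all below PBS, and GGsTop overlapped with both. Angptl4 had a log2 change of −0.62 (SE 0.18, adjusted p = 0.0208) for vehicle against PBS, −0.02 (SE 0.17, adjusted p = 0.961) for GGsTop against vehicle and −0.64 (SE 0.18, adjusted p = 0.0774) for GGsTop against PBS. Pdk4, which diverts mitochondria from glucose to fat, ranged from 5.50 to 48.3 FPKM in PBS and from 38.9 to 66.5 FPKM in vehicle libraries (log2 change 1.67, SE 0.64, adjusted p = 0.0590). In GGsTop it ranged from 6.55 to 38.2 FPKM. Ucp3, a mitochondrial carrier gene of muscle and brown fat, was at 2.41 to 6.87 FPKM over all libraries without a call.

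**Figure D3:**
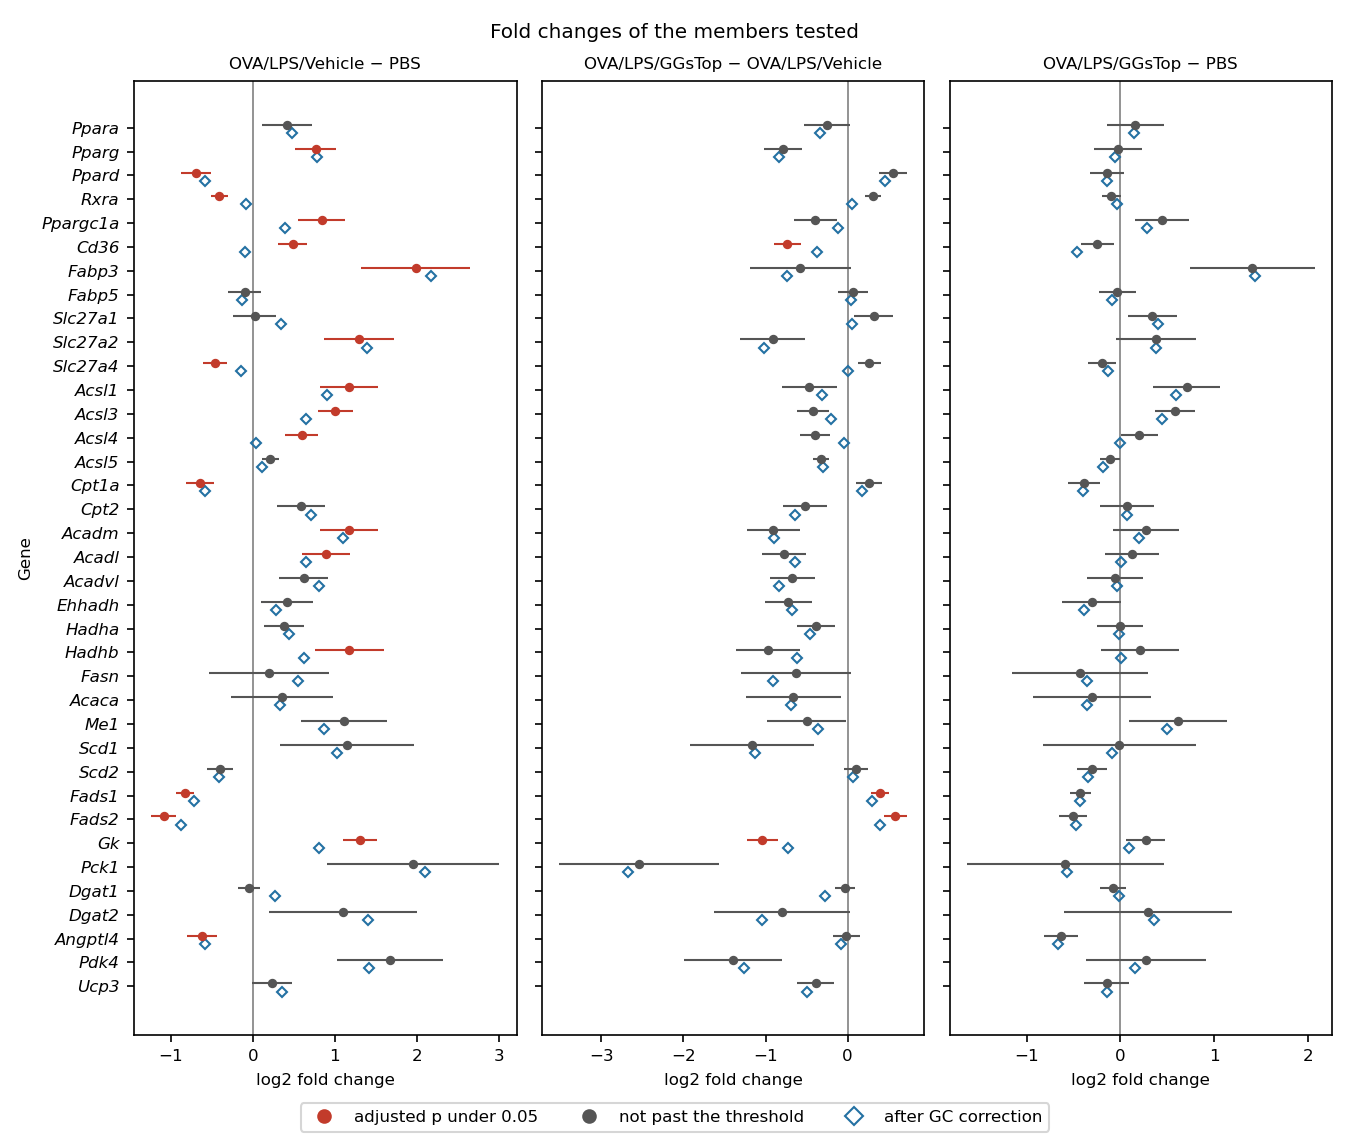
Log2 changes of the 37 genes tested in the 3 comparisons, with bars of 1 SE, red where the adjusted p was under 0.05 and grey otherwise, and open diamonds for the value after GC correction. In the left panel 19 genes are red, in the middle panel Gk and Cd36 to the left of 0 and Fads1 and Fads2 to the right, and in the right panel none.

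GC content went with the fold changes across all genes. From OVA/LPS/Vehicle against PBS the median log2 change was 0.41 in the fifth of genes with the lowest GC content and −0.41 in the fifth with the highest, and for GGsTop against vehicle −0.26 and 0.30. The 12 genes higher in OVA/LPS/Vehicle had a median GC content of 44.0% and the 7 lower genes 52.2%, beside 49.9% over all genes. With the correction 11 of the 19 kept their call, namely Pparg, Fabp3, Slc27a2, Acsl3, Acadm and Gk among the higher and Ppard, Cpt1a, Fads1, Fads2 and Angptl4 among the lower genes. Rescaling the libraries to the same FPKM total moved the median of all genes from −0.01 to −0.15 and left 6 higher and 8 lower calls in place of 12 and 7. For GGsTop against vehicle the split was 2 higher and 2 lower. It was 4 and 2 with the same FPKM total, and none and 2 with the same median. With the same FPKM total, 41.4% of all genes were called for OVA/LPS/Vehicle against PBS, beside 38% without rescaling. Between GGsTop and vehicle, 15.6% of all genes were called with the same FPKM total and 4.99% with the same median, beside 8.71%.

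Between libraries of the same group, the fatty acid genes had wider ranges than the median gene. The median ratio of the highest to the lowest library was 2.06 in PBS, 1.61 in OVA/LPS/Vehicle and 1.94 in OVA/LPS/GGsTop, beside 1.49, 1.29 and 1.36 over all genes tested. As a description chosen after the values were seen, GGsTop 1 and 3 were both below GGsTop 2 and 4 for 26 of 37 genes (70.3%, beside 26.3% of all genes tested). This order held for all 6 beta-oxidation genes, for Fasn, Acaca, Me1 and Scd1, and for the 4 genes of glycerol and triglyceride metabolism, as well as for all 15 adipocyte and all 9 cardiac markers. The marker sums of skeletal muscle, smooth muscle, cartilage and alveolar macrophages had the same order. Those of alveolar type 2 cells, capillary endothelium, airway epithelium, and T cells and thymus did not. PBS 2 was the highest PBS library for 25 of the 37 genes (67.6%, beside 36.8%) and PBS 3 the lowest for 26 (70.3%, beside 44.1%). OVA/LPS/Vehicle 12 was the highest of its group for 24 (64.9%, beside 35.9%). Of the 15 adipocyte markers, 12 were highest in PBS 2, 13 lowest in PBS 3 and 13 highest in OVA/LPS/Vehicle 12. For the 9 cardiac markers these counts were 9, 0 and 1.

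**Figure D4:**
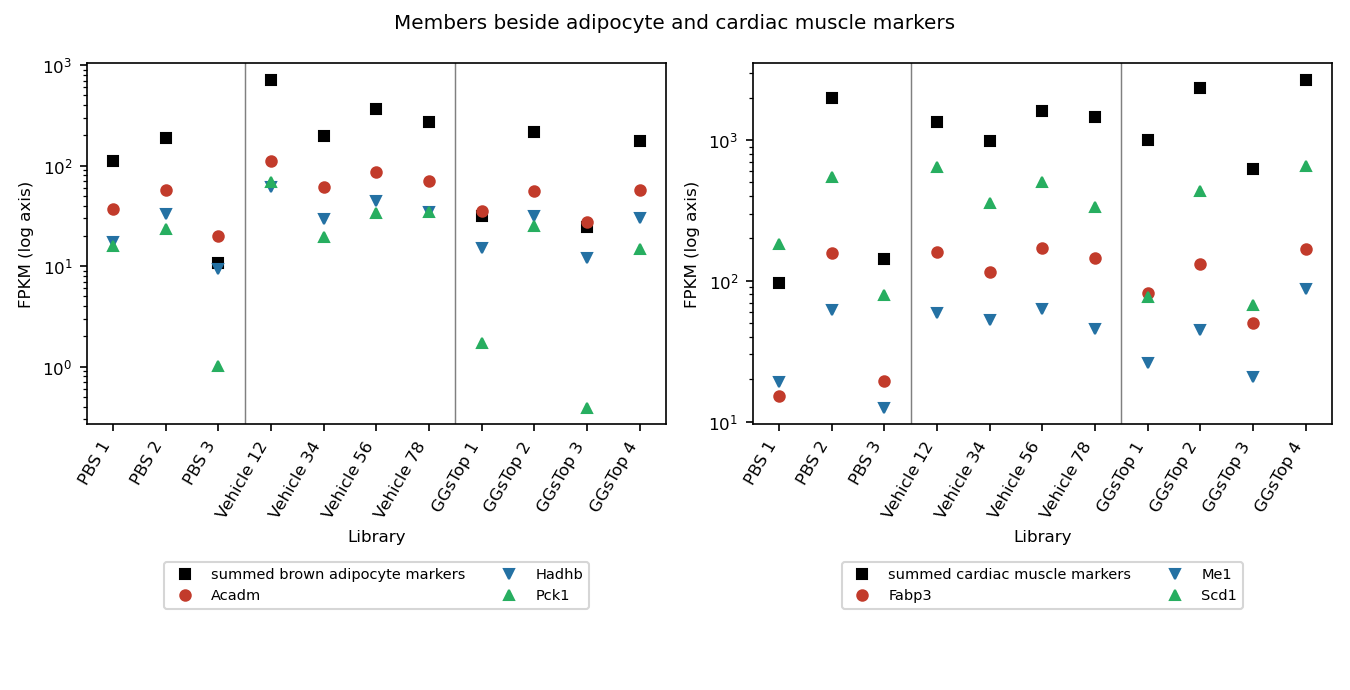
FPKM on a log axis in the 11 libraries for the sum of 6 brown adipocyte markers beside Acadm, Hadhb and Pck1 (left) and for the sum of 9 cardiac markers beside Fabp3, Me1 and Scd1 (right), with grey lines between the groups. In GGsTop 1 and 3 the brown adipocyte sum was 31.5 and 24.6 FPKM, against 217 and 174 FPKM in GGsTop 2 and 4, and all the genes plotted were lower in GGsTop 1 and 3 as well.

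Ucp1, the uncoupling protein of brown fat, was at 57.4, 39.4 and 1.38 FPKM in PBS 1 to 3, at 363, 74.2, 138 and 94.8 FPKM in the vehicle libraries and at 0, 54.7, 0.232 and 24.7 FPKM in GGsTop 1 to 4. Myl7, an atrial myosin light chain, was at 1.01, 767 and 25.8 FPKM in PBS, 533, 382, 658 and 587 FPKM in vehicle and 352, 937, 225 and 1081 FPKM in GGsTop. Ucp1 was highest in OVA/LPS/Vehicle 12 and, among the PBS libraries, in PBS 1, whereas Myl7 was highest in GGsTop 4 and lowest in PBS 1. With the mean adipocyte marker level as a covariate, a fit chosen after the data were seen, 8 of the 37 genes were called for OVA/LPS/Vehicle against PBS, namely Acadm, Acsl3 and Gk as higher and Fads1 and Fads2 as lower from among the 19, together with Fasn, Acaca and Dgat2 as lower. With the cardiac level in its place only Gk, Fads1 and Fads2 were called. Over all genes these fits called 16.6% and 5.86%. The 14 genes that lost their call with the adipocyte covariate kept their direction, with a median size of the log2 change of 0.42 beside 0.73 without it, and so did the 16 that lost it with the cardiac covariate (0.47 beside 0.80). For GGsTop against vehicle the adipocyte covariate left only Dgat2 (higher), with adjusted p of 0.0623 for Gk, 0.0844 for Cd36, 0.0849 for Fads2 and 0.171 for Fads1, while 0.800% of all genes were called. The log2 changes in that fit were −0.73 for Gk, −0.71 for Cd36, 0.59 for Fads2 and 0.26 for Fads1, beside −1.04, −0.74, 0.58 and 0.40 without the covariate. The cardiac covariate gave 14 calls that included the 4, beside 15.5% of all genes. The adipocyte level is the mean over the white and brown adipocyte markers. Several of these, among them Fabp4 and Cidec, are also on the list of other pathway genes given below. The fit with this level therefore cannot tell the amount of fat tissue from the activity of the pathway. The part of the adipocyte and cardiac levels in these differences was not tested beyond these fits. For GGsTop against PBS the covariates gave 4 and 0 calls (11.3% and 0.164% of all genes), the 4 being Acsl1 (higher) and Angptl4, Fads1 and Fads2 (lower).

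Leaving out PBS 3 reduced the calls of OVA/LPS/Vehicle against PBS from 19 to 7 (Acsl3 and Gk higher, Fads1, Fads2, Ppard, Rxra and Scd2 lower). Leaving out PBS 2 gave 22. Over all genes 21.9% were called without PBS 3 and 46.0% without PBS 2. The count was 11 without PBS 1, and 10, 13, 9 and 12 without OVA/LPS/Vehicle 12, 34, 56 and 78. Of the 12 higher genes only Acsl3 and Gk were called in each of these 7 fits, and of the 7 lower genes Fads1, Fads2, Ppard and Rxra.

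The promoters of the 2 genes that were lower with GGsTop than with vehicle (Gk and Cd36) are shown. PPARs bind AGGTCA-type sites, and of these 2 windows only that of Cd36 holds AGGTCA. Other genes, among them Fads1, Fads2, Pparg and Acadm, also separated vehicle from both other groups, and their promoters are not shown. The windows shown are the 250 bases before the RefSeq transcript start on GRCm38.p6, written 5′ to 3′ on the gene's strand, with the match in capitals. The Gk window is chrX:85776820-85777069, directly upstream of the annotated gene, and the capitals mark an E-box, CACGTG, whose first base lies 58 bases before the start. This window holds no AGGTCA. The Cd36 window is chr5:17835897-17836146, which lies in an intron of the longer annotated transcripts. The bases that follow this RefSeq start were not found in the GENCODE transcripts of Cd36, so that the start itself was not checked by them. The capitals of this window mark AGGTCA on the opposite strand, with the first base 228 bases before the start.
Gk: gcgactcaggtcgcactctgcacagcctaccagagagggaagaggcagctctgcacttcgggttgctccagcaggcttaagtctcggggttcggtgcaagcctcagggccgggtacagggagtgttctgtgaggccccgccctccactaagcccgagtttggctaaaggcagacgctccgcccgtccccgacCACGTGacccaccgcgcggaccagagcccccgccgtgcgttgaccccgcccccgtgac
Cd36: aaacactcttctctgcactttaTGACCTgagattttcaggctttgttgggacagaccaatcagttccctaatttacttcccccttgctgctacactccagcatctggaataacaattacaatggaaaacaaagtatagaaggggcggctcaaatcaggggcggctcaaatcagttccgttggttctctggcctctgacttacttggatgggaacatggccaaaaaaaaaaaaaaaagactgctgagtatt

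Across 32851 RefSeq promoter windows of this length, searched on both strands, 14% held AGGTCA, 6.02% held CACGTG and 0.0335% held the direct repeat of AGGTCA with 1 base between the copies, which contains AGGTCA. Of the 38 genes 30 had a window. AGGTCA was present for 8 of these 30 (Acadm, Acadvl, Cd36, Cpt1a, Pparg, Rxra, Slc27a2 and Ucp3), CACGTG for 2 (Gk and Slc27a1) and the direct repeat for none. A match describes letters and does not show a bound site.

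Beyond the 38 genes, 66 other genes of PPAR signalling, fatty acid and sterol metabolism were listed, of which 63 were tested. Against PBS, 8 were higher and 12 lower in OVA/LPS/Vehicle (31.7% called, beside 38% of all genes). The lower genes with the smallest p were Srebf2, Elovl1, Acot2, Cyp4b1 and Srebf1. Srebf2 and Srebf1 encode the transcription factors of sterol and fatty acid synthesis. Srebf2 went from 33.9 ± 5.12 FPKM (SD, n = 3) in PBS to 20.5 ± 0.623 FPKM (SD, n = 4) in vehicle, or by −0.69 on the log2 scale (SE 0.10, adjusted p = 0.00341 in limma). Srebf1 went from 29.9 ± 7.03 to 16.9 ± 1.83 FPKM, or by −0.77 on the log2 scale (SE 0.16, adjusted p = 0.00625). Elovl1, an elongase gene for very long chains, fell by 1.33 on the log2 scale (SE 0.25, adjusted p = 0.00479). Cyp4b1, a cytochrome P450 gene of lung epithelium, fell by 1.05 (SE 0.21, adjusted p = 0.00596), and Acot2, a mitochondrial acyl-CoA thioesterase gene, by 0.70 (SE 0.14, adjusted p = 0.00569). All 5 kept their call after GC correction.

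The higher genes with the smallest p were Crot, Scp2, Lpl, Etfa and Decr1, which act in peroxisomal export, lipid transfer, lipoprotein lipolysis and beta-oxidation. Lpl, lipoprotein lipase, was at 10.6 to 32.3 FPKM in PBS and 31.6 to 65.3 FPKM in vehicle libraries and differed by 1.22 on the log2 scale (SE 0.36, adjusted p = 0.0234 in limma). The log2 changes of the other 4 lay between 0.39 and 0.93, and none of the 5 kept its call after GC correction. Under GGsTop 2 genes were higher than in vehicle, namely Srebf2 (log2 change 0.42, SE 0.10, adjusted p = 0.0292) and the receptor partner gene Rxrb (0.46, SE 0.12, adjusted p = 0.0447), and Scp2 was lower (−0.42, SE 0.11, adjusted p = 0.0385). Those 3 of 63 are 4.76%, beside 8.71% of all genes, and none kept its call after GC correction. Between GGsTop and PBS, the thioesterase genes Acot1 and Acot2 were lower in OVA/LPS/GGsTop, with log2 changes of −0.92 (SE 0.20, adjusted p = 0.0359) and −0.76 (SE 0.14, adjusted p = 0.0208), and both kept their call after GC correction. With the replicate block neither was called (adjusted p = 0.117 for Acot1 and 0.113 for Acot2), and with single libraries left out Acot1 was called in 2 and Acot2 in 4 of 7 fits. Acot1 and Acot2 are close copies, between which reads may have been split uncertainly.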

How the data were processed

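The airway RNA libraries were poly-A selected and sequenced on an Illumina instrument by a service company. The authors deposited FPKM, fragments per kilobase of exon scaled to library size, in 1 column per library (3 PBS, 4 vehicle and 4 GGsTop). The submitters' processing notes name cutadapt 1.15, HISAT2 2.0.5, HTSeq 0.9.1 and the build mm39. The annotation release is not given in the sources used here, and the authors' own differential test with DESeq was not used.

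Identifiers were matched to symbols, exon lengths and GC content in GENCODE M21 on GRCm38 (21795 of 21899). FPKM multiplied by exon length gave whole fragments, within 0.02, in every library for 97.6% of genes. A fold change on the log2(FPKM + 1) scale understates the change of low genes. Genes averaging 0.5 FPKM or more entered a single 3-group fit of the 11 libraries (limma 3.58.1, R 4.3.3, empirical Bayes with trend). P-values were two-sided and Benjamini-Hochberg adjusted over 14004 genes. SDs are over libraries, and depth limits low values by counting error only. GC correction subtracted, in each library, a natural spline with 5 degrees of freedom in GC content. The other alternatives were limma voom on the recovered fragments (13673 genes), another pseudocount (0.1) and filter, rescaling, removal of mitochondrial genes, array weights, fits of 2 groups, each library left out, and a replicate block. Marker levels as covariates were added after seeing the data.

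PBS and OVA/LPS/GGsTop share replicate numbers 1 to 3. Correlations of the same-numbered libraries' deviations from their group means were 0.367, 0.427 and 0.428, so that the block was fitted. Libraries of different number correlated more closely, PBS 2 and OVA/LPS/GGsTop 4 at 0.637 and PBS 1 and OVA/LPS/GGsTop 3 at 0.457. The correlations therefore do not show that the shared numbers mark pairs. Values in every library are printed for genes called in at least 1 comparison and for the receptors, other genes are given by range, and from the list of other pathway genes up to 5 per direction with the smallest p are named. From that list 1 gene is not reported here and stays out of its counts. Of each marker list, at most 3 genes with the highest mean were eligible to be named. The 38 genes and all lists were chosen with earlier results of these data known. Tables and figures used Python 3.11.15, pandas 2.3.3, numpy 2.4.6, scipy 1.17.1 and matplotlib 3.10.9.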

Additional observations from a re-analysis of the deposited data

Results flagged for a closer look

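Within groups of 4 libraries, 100 groups of values were screened for a single library far from the other 3 (Dixon's ratio above 0.829), and chance gives such a flag in about 5% of groups. The screen marked 6 values. Ppard was at 2.11 FPKM in OVA/LPS/Vehicle 56, against 3.0 to 3.14 FPKM in the other 3. Cd36 was at 335 FPKM in OVA/LPS/Vehicle 78, against 390 to 394 FPKM. Ehhadh was at 12.1 FPKM in OVA/LPS/Vehicle 12, against 5.47 to 6.02 FPKM, and Srebf1 at 19.6 FPKM in the same library, against 15.6 to 16.2 FPKM. Ucp3 was at 4.40 FPKM in OVA/LPS/GGsTop 2, against 2.41 to 2.61 FPKM. Srebf2 was at 26.0 FPKM in OVA/LPS/GGsTop 1, against 28.1 to 28.4 FPKM.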

How the results depend on the processing

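The counts of called genes below are those among the 37 fatty acid genes tested, or 36 with voom, which left out Rxra. For OVA/LPS/Vehicle against PBS the count of 19 became 11 with GC correction, 12 without a filter on low values, 8 with the adipocyte and 3 with the cardiac covariate, and 7 to 22 with 1 library left out. Over all genes these settings called 20.8%, 27%, 16.6%, 5.86% and 21.9% to 46.0%, beside 38% without them. It was 14 to 21 in the other 8 alternatives, among them voom (17) and removal of mitochondrial genes (16). For OVA/LPS/GGsTop against vehicle the count of 4 became 0 with GC correction, 1 with the adipocyte and 14 with the cardiac covariate, 19 with array weights, 12 with only the 2 groups in the fit, 2 with the same median, and 0 to 3 with 1 library left out. Over all genes these settings called 0.400%, 0.800%, 15.5%, 37.2%, 25.2%, 4.99% and 0.171% to 7.51%, beside 8.71% without them. For OVA/LPS/GGsTop against PBS the count of 0 became 4 with the adipocyte covariate, 5 with array weights, 2 with the same FPKM total, 1 (Acaca, lower) with the replicate block and GC correction together, and 0 to 5 with 1 library left out. Over all genes these called 11.3%, 18.3%, 3.55%, 2.58% and 0.207% to 11.4%, beside 2.88% without them. The replicate block alone gave 0 and changed no call among the 37, while it lowered the calls over all genes from 403 to 95. The cause of these differences was not tested.

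Of 360 alternative values for the 19 fold changes called against PBS, 246 kept direction and call, 113 kept the direction alone and 1 reversed, namely Cd36 with GC correction (log2 fold change −0.090). Of 80 for the 4 called under GGsTop, 44 kept both and 36 the direction alone. Depth limits Cpt1b, which was below the filter and not tested, at 6 to 37 fragments per library, whereas each of the 37 genes tested had at least 21 in every library.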
